A study of Mus musculus with 12 samples.

Results

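The 9 genes described here code for core parts of the Hedgehog pathway, namely the membrane receptor Ptch1, the co-receptors Boc and Gas1, the ligand inhibitor Hhip, the signal transducer Smo, the Gli inhibitor Sufu and the transcription factors Gli1, Gli2 and Gli3. They were taken by symbol from the deposited expression table and joined by Ensembl identifier to the estimated counts of 12 RNA-seq libraries, and all 9 were found among the 45792 genes listed. Expression was measured in primary neural stem cells (NSCs) grown from the forebrains of newborn mouse pups, to ask how loss of Ncf1 and addition of Igfbp2 change their transcriptome. Ncf1 is an organizer subunit of the phagocyte-type NADPH oxidase, which makes reactive oxygen species, and Igfbp2 is a secreted protein that binds insulin-like growth factors.

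There were 3 groups of 4 libraries, and each WT or Ncf1-/- pup was cultured on its own. WT NSCs came from C57BL/6J mice (replicates 9 to 12) and were not treated. Ncf1-/- NSCs came from a line crossed back to C57BL/6J, in which the gene is lost throughout the body. Replicates 1 to 4 were Ncf1-/- cultures given vehicle, called untreated in the labels, and replicates 5 to 8 were Ncf1-/- cultures given recombinant mouse Igfbp2 at 48 h after plating. The dose in the labels is 100 ng/ml. The methods of the study state a lower one. RNA was collected 48 h after treatment, and all cultures grew in serum-free medium with EGF, FGF and B-27. No WT culture with Igfbp2 was analysed here, so the comparison between treatments holds for Ncf1-/- cells only.

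In cells that receive the signal, Ptch1 keeps Smo inactive until a Hedgehog ligand (Shh, Ihh or Dhh) binds to Ptch1, often with the help of Boc, Gas1 or Cdon. Active Smo moves into the primary cilium, where Gli2 and Gli3 are released from Sufu and are no longer cut into repressors, and Gli1, Ptch1 and Hhip are among the genes that Gli activators switch on. In the forebrain the pathway is known for patterning the ventral progenitor zones and for maintaining adult NSCs and oligodendrocyte precursors.

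The libraries held between 18201622 and 34086554 estimated counts, the deepest being WT replicate 11. NSC markers were present in all groups, but the WT cultures also held much RNA of oligodendrocyte markers. Summed over 6 oligodendrocyte markers, the level was between 1483 and 8961 CPM (counts relative to the library size, scaled with TMM factors) in WT libraries, between 191.9 and 247.4 in vehicle-treated and between 208.5 and 280.6 in Igfbp2-treated Ncf1-/- libraries, and all 6 markers were lower in both Ncf1-/- groups than in WT. Of the oligodendrocyte markers, Mog was at 3 or fewer counts in each library of both Ncf1-/- groups. WT replicate 11 stood apart from the other WT libraries, with the lowest oligodendrocyte sum and a summed level of 7 NSC markers of 7827 CPM against 2340 to 3554. Vim and Fabp7 made up most of that sum, and the 7 NSC markers did not move together, as with vehicle Nes and Fabp7 were higher than in WT, Sox2, Pax6, Msi1 and Prom1 were lower and Vim did not pass the test. In bulk RNA, fewer cells of a type and less RNA per cell cannot be told apart. The genotype could not be checked on Ncf1 itself, which had 2 to 7 counts in WT and 1 to 4 in Ncf1-/- libraries. The summed level of 4 Y-linked genes was between 105.3 and 115.5 CPM in the vehicle-treated Ncf1-/- libraries but between 7.795 and 9.181 in the Igfbp2-treated ones, although the study describes both groups as paired cultures of the same pups. Among WT libraries replicate 12 was low in the same way, at 6.458 CPM. In another sample list of the study the library of WT replicate 12 is marked as treated with apocynin, an inhibitor of NADPH oxidase, whereas the labels used here give it as untreated. Treatment and the level of Y-linked genes cannot be told apart in the Ncf1-/- libraries, and so neither can treatment and the sex of the pups. Every comparison between the treatments is also one between these levels, and may be one between different pups.

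Promoter sequences are shown for 4 genes whose levels were lower with vehicle than in WT, to set the genes with lower RNA beside the DNA next to their start. The sequences are the 250 bases before the start in RefSeq on GRCm38.p6, written 5′ to 3′ on the strand of the gene, with each GC box (GGGCGG or CCGCCC, the core of an Sp1 site) in capitals. The Gli2 promoter is chr1:119053620-119053869 (minus strand), that of Gli3 chr13:15463473-15463722 (plus strand), that of Ptch1 chr13:63565736-63565985 (minus strand) and that of Hhip chr8:80058009-80058258 (minus strand).
Gli2: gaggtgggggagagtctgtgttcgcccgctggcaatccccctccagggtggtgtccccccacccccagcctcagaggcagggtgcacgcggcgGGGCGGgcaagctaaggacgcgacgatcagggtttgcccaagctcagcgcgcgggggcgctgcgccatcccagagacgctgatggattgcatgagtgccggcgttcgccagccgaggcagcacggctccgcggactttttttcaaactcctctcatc
Gli3: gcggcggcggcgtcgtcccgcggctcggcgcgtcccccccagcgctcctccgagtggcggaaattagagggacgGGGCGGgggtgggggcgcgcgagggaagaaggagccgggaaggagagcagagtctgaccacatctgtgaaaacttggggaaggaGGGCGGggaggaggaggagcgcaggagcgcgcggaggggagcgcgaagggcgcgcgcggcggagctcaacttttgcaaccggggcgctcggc
Ptch1: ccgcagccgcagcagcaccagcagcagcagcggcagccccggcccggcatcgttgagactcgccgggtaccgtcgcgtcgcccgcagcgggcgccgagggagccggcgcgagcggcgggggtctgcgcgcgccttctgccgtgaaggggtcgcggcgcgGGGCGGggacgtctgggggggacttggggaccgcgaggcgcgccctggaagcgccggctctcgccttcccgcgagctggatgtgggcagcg
Hhip: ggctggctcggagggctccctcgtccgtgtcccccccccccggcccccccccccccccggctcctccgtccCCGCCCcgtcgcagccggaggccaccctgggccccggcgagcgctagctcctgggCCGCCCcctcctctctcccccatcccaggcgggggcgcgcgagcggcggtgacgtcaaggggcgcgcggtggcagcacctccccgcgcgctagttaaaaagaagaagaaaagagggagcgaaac

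The RefSeq table held a promoter for 7 of the 9 genes, and not for Boc and Gli1. A GC box was found on either strand in 6 of the 7 promoters, all but that of Smo, against 32.7% of all 32851 promoters in the table. The consensus bound by Gli factors, GACCACCCA or its reverse complement TGGGTGGTC, was in 0 of the 7 promoters and in 0.225% of all promoters. Allowing at most 1 mismatch, the consensus was found in 0 of the 7 and in 5.79% of all promoters. These matches describe 1 start per gene only, and more distant sequence was not searched. For Ptch1 and Gli3 the sequence lies inside the gene span annotated by GENCODE, not before its outer 5′ end. The 4 promoters were rich in G and C, between 67.2% for Gli2 and 78.4% for Ptch1, where the median of all promoters was 52.4%. The promoters of the genes that were not lower had 68.4% (Smo), 58.8% (Gas1) and 54% (Sufu).

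Of the 9 genes, 8 had enough counts for a test and Gli1 did not. In vehicle-treated Ncf1-/- relative to WT NSCs, 7 of the 8 genes changed at an adjusted p-value under 0.05 (edgeR's quasi-likelihood test, adjusted by the Benjamini-Hochberg method over 15706 genes), where 57.2% of all genes tested did. Gli2, Gli3, Ptch1, Hhip and Boc were lower and Smo and Gas1 were higher, while 28.2% of all genes were lower and 28.9% higher. When scaled to library totals alone, 2 of the 8 were higher and 4 lower, and 6024 of all genes were higher and 3159 lower. The median log2 fold change was -0.57 over the 8 genes and 0.02 over all genes. The groups did not overlap for 4 of the 8 genes (Gli2, Gli3, Smo and Boc) against 51.2% of all genes.

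With Igfbp2, 0 of the 8 genes passed the threshold relative to vehicle, against 25% of all genes (14.2% higher and 10.7% lower), and 3 had an unadjusted p-value under 0.05 (Gli2, Ptch1 and Gas1), against 38.7%. The 2 treatments did not overlap for 3 of the 8 (Ptch1, Smo and Gas1), against 34.1% of all genes. DESeq2 called 1 of them, Ptch1. The 8 fitted changes with Igfbp2 were all above 0, with a median of 0.33 against 0.04 over all genes. The balance of calls between the treatments depended on the scale, with 2238 genes higher and 1685 lower with TMM factors, 648 and 5258 with library totals and 200 and 6154 by limma on log2(TPM + 1). In the study's test on deposited TPM, where the median of all genes was -0.43, all 8 were below 0, but 7 of the 8 were still above that median, all but Hhip.

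**Figure D1:**
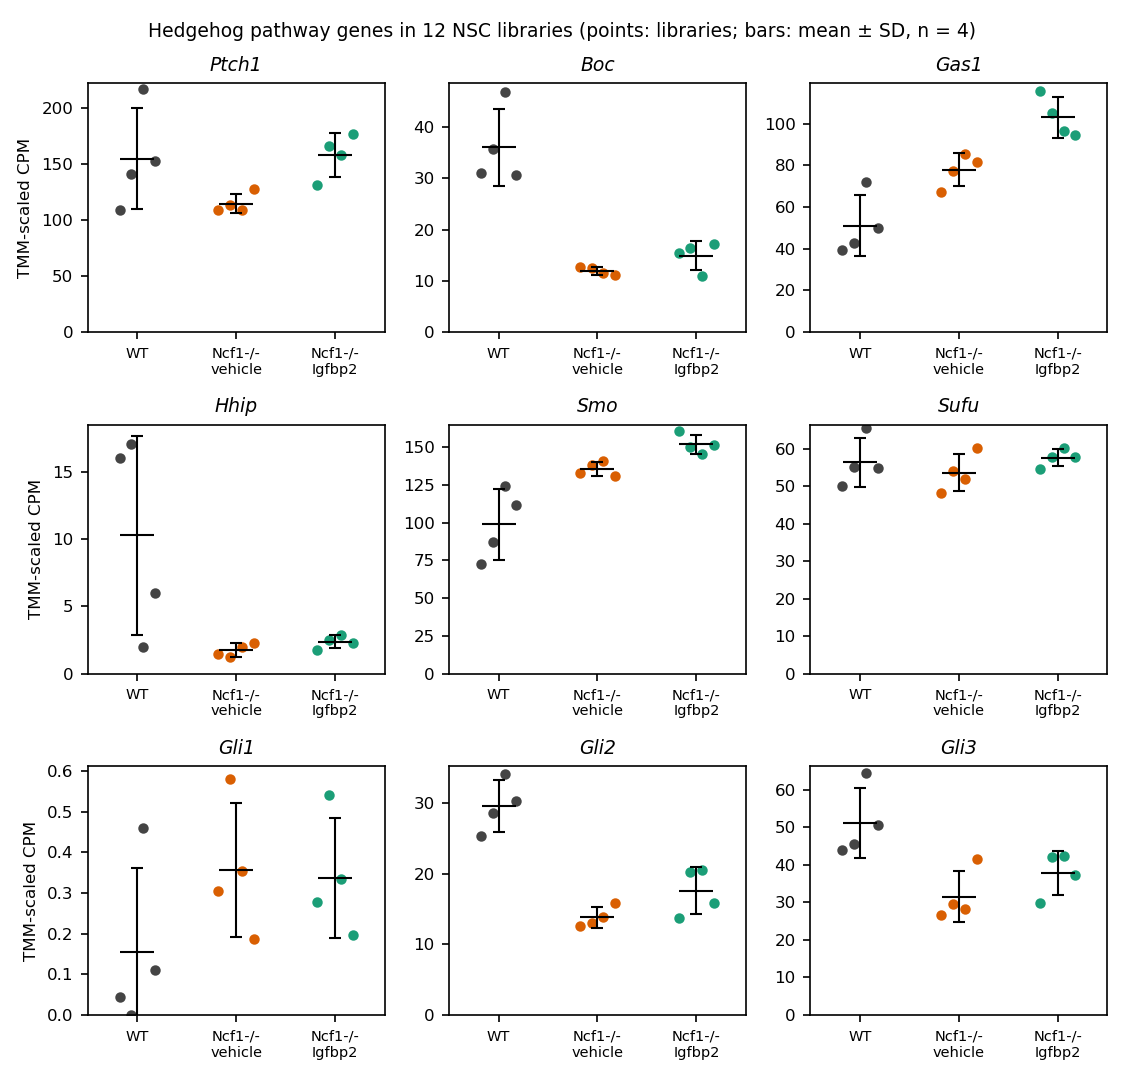
TMM-scaled CPM (y axis, each from 0) of the 9 genes in each of the 12 libraries (points), by group (x axis), with bars for the mean ± SD of 4 libraries. Boc, Gli2 and Gli3 are lower in every Ncf1-/- library than in every WT library, Smo is higher in every one, and the 4 WT points for Hhip range from 2.01 to 17.1.

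Ptch1 (chr13:63508328-63573598), the receptor and a direct Gli target, was lower with vehicle than in WT by a small margin. The call depended on single libraries and on the processing. It had 109.0, 141.5, 217.1 and 152.6 CPM in WT replicates 9 to 12. In vehicle-treated Ncf1-/- replicates 1 to 4 it had 109.5, 113.3, 108.9 and 127.6 CPM, and in Igfbp2-treated replicates 5 to 8 it had 131.7, 166.6, 158.3 and 176.8 CPM. The vehicle-treated libraries overlapped WT, in which replicate 11 was highest, but all 4 lay below the Igfbp2-treated ones. The log2 fold change was -0.43 ± 0.17 (SE) between vehicle-treated Ncf1-/- and WT NSCs (adjusted p = 0.0413), and this call was lost in 11 of 20 alternatives. Without WT replicate 11 the change was -0.22 (adjusted p = 0.137), and without Ncf1-/- replicate 1, 2 or 3 or Igfbp2-treated replicate 8 the adjusted p was between 0.0565 and 0.0918. With all libraries kept, the call was also lost with library totals (-0.26, adjusted p = 0.238) and with no gene filter (-0.42, adjusted p = 0.0539). A fit of vehicle-treated Ncf1-/- and WT libraries only gave -0.40 (adjusted p = 0.0861). Limma on log2(TPM + 1) gave -0.28 (adjusted p = 0.355), and the study's test on TPM gave -0.36 (adjusted p = 0.776). Between the treatments the change was 0.46 ± 0.17 (adjusted p = 0.0605), and in a fit of these 2 groups only it was 0.42 ± 0.10 (adjusted p = 0.00584). With the pairs of the sample sheet as a block it was 0.41 ± 0.08 (adjusted p = 0.00566), although Y-linked levels differed within each pair. Such a block may not match cultures of the same pup. Without WT replicate 9 the adjusted p between the treatments was 0.0261, and without WT replicate 11 it was 0.0102. Igfbp2-treated NSCs differed from WT by 0.03, with a 95% interval from -0.33 to 0.39 (adjusted p = 0.887).

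Boc (chr16:44485049-44558897), a membrane protein that presents ligand to Ptch1, showed the clearest difference between the genotypes. It had 31.0, 35.8, 46.8 and 30.6 CPM in WT replicates 9 to 12. In vehicle-treated Ncf1-/- replicates 1 to 4 it had 12.8, 12.5, 11.4 and 11.2 CPM, and in Igfbp2-treated replicates 5 to 8 it had 15.3, 16.4, 10.9 and 17.2 CPM. Every Ncf1-/- library lay below every WT library, and the treatments overlapped through replicate 7. Boc was 3.02-fold lower with vehicle than in WT (log2 fold change -1.59 ± 0.16, adjusted p = 2.8e-06) and 2.42-fold lower in Igfbp2-treated NSCs (-1.28 ± 0.16, adjusted p = 1.55e-05). Both calls held in each alternative tried. Between the treatments the change was 0.32, with a 95% interval from -0.03 to 0.66 (adjusted p = 0.159).

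Gas1 (chr13:60174405-60177365), a membrane-anchored co-receptor that binds Shh, went the opposite way to Boc. Its levels in WT replicates 9 to 12 were 39.2, 42.8, 72.1 and 49.9 CPM. They were 67.1, 77.2, 85.7 and 81.9 CPM in vehicle-treated and 115.6, 105.3, 96.6 and 94.5 CPM in Igfbp2-treated Ncf1-/- replicates, in the order of their numbers. WT replicate 11 overlapped the vehicle-treated libraries, and the Igfbp2-treated libraries lay above all others. Gas1 was 1.53-fold higher with vehicle than in WT (log2 fold change 0.61 ± 0.16, adjusted p = 0.00583) and 2.01-fold higher in Igfbp2-treated NSCs (1.01 ± 0.16, adjusted p = 0.000145). Relative to vehicle the Igfbp2-treated NSCs differed by 0.40 ± 0.16, which missed the threshold (adjusted p = 0.0843), and the sign turned on TPM (-0.07 on log2(TPM + 1)). In a fit of these 2 groups only the difference was 0.35 ± 0.09 (adjusted p = 0.00733), and without WT replicate 11 it was 0.40 (adjusted p = 0.0109). With the pairs of the sample sheet as a block it was 0.35 ± 0.10 (adjusted p = 0.0225), but Y-linked levels differed within each pair. An unnamed gene model on the opposite strand (Gm48488) shares 589 exon bases with Gas1, and the counting is not stated to use strand.

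Hhip (chr8:79965851-80058006), which binds ligand at the cell surface and is switched on by Gli activators, had the largest fold difference from WT of the 8 tested genes and varied the most among WT libraries relative to its mean. WT replicates 9 to 12 had 16.1, 17.1, 2.01 and 6.01 CPM, from 353, 317, 70 and 108 counts. The vehicle-treated Ncf1-/- libraries had 1.48, 1.21, 1.99 and 2.31 CPM and the Igfbp2-treated ones 1.72, 2.52, 2.87 and 2.31 CPM, from 25 to 62 counts. WT replicates 9, 10 and 12 lay above every Ncf1-/- library, and WT replicate 11 lay among them. Hhip was 5.79-fold lower with vehicle than in WT (log2 fold change -2.53 ± 0.53, adjusted p = 0.00114) and 4.32-fold lower in Igfbp2-treated NSCs (-2.11 ± 0.52, adjusted p = 0.00332). Leaving out WT replicate 11 gave -2.89 (adjusted p = 5.1e-06) and -2.47 (adjusted p = 1.92e-05). Between the treatments the change was 0.42, with an interval from -0.78 to 1.62 (adjusted p = 0.606), which includes a doubling of the level.

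**Figure D2:**
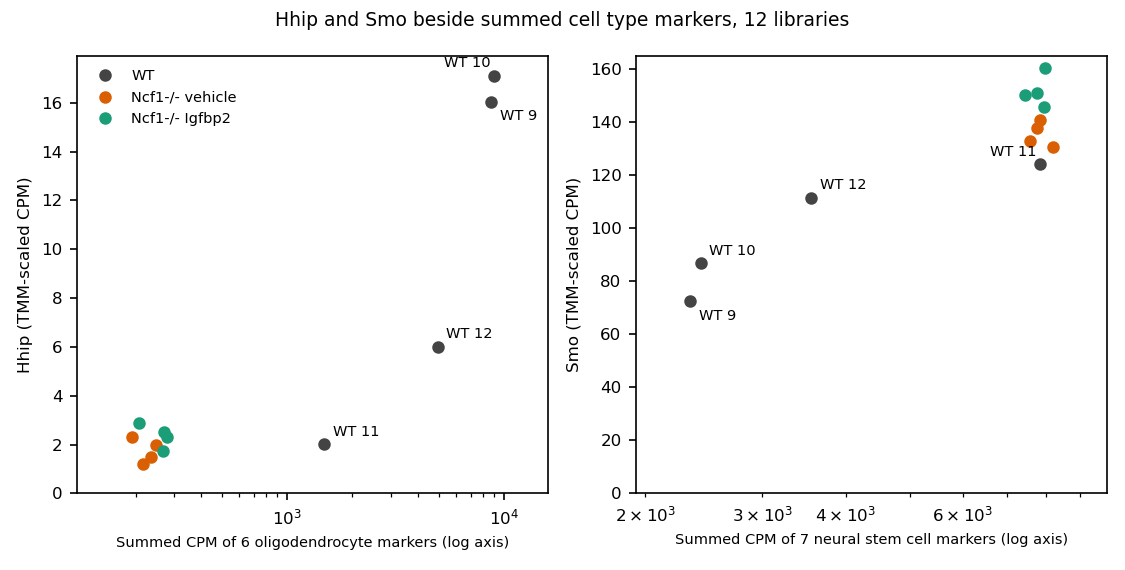
Left, Hhip (y axis, TMM-scaled CPM) against the summed CPM of 6 oligodendrocyte markers (x axis, log scale). Right, Smo against the summed CPM of 7 NSC markers (x axis, log scale). Each point is 1 of 12 libraries, coloured by group, and the 4 WT libraries are named. WT replicates 9 and 10 have the highest oligodendrocyte sums and the highest Hhip, and WT replicate 11 has the lowest of both among WT libraries.

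Among the 4 WT libraries, the order of Hhip levels was that of the summed oligodendrocyte markers, which were 8733, 8961, 1483 and 4945 CPM in replicates 9 to 12. WT replicate 11 was the highest of the WT libraries for 7 of the 8 tested genes, all but Hhip. It was also the library with the highest sum of NSC markers in WT. For Smo and Gas1, replicate 11 was thus the WT library nearest to the vehicle-treated Ncf1-/- ones. For Gli2, Gli3, Ptch1 and Boc, which were lower with vehicle, it was the farthest from them. The part that cell composition has in the differences between WT and Ncf1-/- NSCs was not tested.

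Smo (chr6:29735503-29761365), the membrane protein that passes the signal into the cell, was higher in Ncf1-/- NSCs. It had 72.4, 86.8, 124.2 and 111.6 CPM in WT replicates 9 to 12. The vehicle-treated Ncf1-/- libraries had 133.0, 137.8, 141.0 and 130.7 CPM and the Igfbp2-treated ones 160.5, 150.2, 145.7 and 151.1 CPM. The 3 groups did not overlap, WT being lowest and Igfbp2-treated NSCs highest. The log2 fold change from WT was 0.46 ± 0.13 with vehicle (adjusted p = 0.0103) and 0.62 ± 0.13 with Igfbp2 (adjusted p = 0.00135). Between the treatments it was 0.16, with an interval from -0.13 to 0.45 (adjusted p = 0.39). On deposited TPM both differences of Smo from WT fell short of the threshold (limma on log2(TPM + 1), 0.51 with adjusted p = 0.0506 and 0.21 with adjusted p = 0.383). WT replicate 11, whose NSC marker sum (mostly Vim and Fabp7) of 7827 CPM lay within the Ncf1-/- range of 7431 to 8188, had the WT Smo level nearest to those of Ncf1-/- libraries.

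Sufu (chr19:46396896-46488804), which holds Gli proteins in the cytoplasm, differed least between the groups. It had 50.2, 55.0, 65.7 and 54.9 CPM in WT, 48.2, 54.1, 52.0 and 60.2 CPM in vehicle-treated and 54.7, 57.8, 60.3 and 57.9 CPM in Igfbp2-treated Ncf1-/- replicates. The 3 groups overlapped. The difference from WT was -0.07 with vehicle, with a 95% interval from -0.27 to 0.13 (adjusted p = 0.515), and 0.03 with Igfbp2, with an interval from -0.17 to 0.23 (adjusted p = 0.788). Between the treatments it was 0.10, with an interval from -0.10 to 0.30 (adjusted p = 0.429). The sign of these small differences turned under several alternatives.

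Gli2 (chr1:118834132-119053619), the main Gli activator, was lower in Ncf1-/- than in WT NSCs. It had 25.4, 28.7, 34.2 and 30.3 CPM in WT replicates 9 to 12. In vehicle-treated Ncf1-/- replicates 1 to 4 it had 12.6, 13.0, 13.9 and 15.9 CPM, and in Igfbp2-treated replicates 5 to 8 it had 13.8, 20.2, 20.6 and 15.9 CPM. All 8 Ncf1-/- libraries lay below the 4 WT libraries, and the treatments overlapped through replicate 5, replicate 8 lying next to the highest vehicle-treated library. Gli2 was 2.14-fold lower with vehicle (log2 fold change -1.10 ± 0.14, adjusted p = 1.86e-05) and 1.68-fold lower with Igfbp2 (-0.75 ± 0.14, adjusted p = 0.000369), and both calls held in each alternative tried. The difference of Igfbp2 from vehicle was 0.35 ± 0.14 (adjusted p = 0.0819). Without Ncf1-/- replicate 4 it was 0.44 (adjusted p = 0.0471), and without Igfbp2-treated replicate 5 it was 0.42 (adjusted p = 0.0356).

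Gli3 (chr13:15463235-15730026), which is mostly cut into a repressor when the pathway is off, was lower with Gli2. It had 43.9, 45.7, 64.3 and 50.6 CPM in WT replicates 9 to 12. The vehicle-treated Ncf1-/- libraries had 26.7, 29.7, 28.2 and 41.7 CPM and the Igfbp2-treated ones 29.8, 42.0, 42.4 and 37.4 CPM. All Ncf1-/- libraries lay below WT, replicates 4, 6 and 7 by the least. Gli3 was 1.62-fold lower with vehicle (log2 fold change -0.70 ± 0.16, adjusted p = 0.00267) and 1.35-fold lower with Igfbp2 (-0.43 ± 0.16, adjusted p = 0.0343). The first call was lost on TPM (limma on log2(TPM + 1), -0.52, adjusted p = 0.0719), and the second without WT replicate 11 (-0.30, adjusted p = 0.107), without Igfbp2-treated replicate 5 (-0.38, adjusted p = 0.057) and without replicate 8 (-0.43, adjusted p = 0.061). Between the treatments the change was 0.26 ± 0.16 (adjusted p = 0.255), and without Ncf1-/- replicate 4 it was 0.44 (adjusted p = 0.0464).

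Gli1 (chr10:127329882-127341974), whose RNA is widely read as a sign of active Hedgehog signalling, was barely detected. It had 1, 0, 16 and 2 counts in WT, 7, 12, 8 and 5 in vehicle-treated and 5, 9, 7 and 4 in Igfbp2-treated Ncf1-/- replicates, which is at most 0.581 CPM. The groups overlapped, and WT replicate 11, the deepest library, had the most counts. In a fit with no filter on low counts the log2 fold change from WT was 0.92 ± 0.65 with vehicle (adjusted p = 0.331) and 0.85 ± 0.68 with Igfbp2 (adjusted p = 0.375), and it was -0.06 ± 0.63 between the treatments (adjusted p = 0.994). With so few counts and 1 WT library unlike the other 3, these differences were not told apart from 0. Exons of Gli1 share 62 bases with Arhgap9 and 265 with the gene model Gm47200, both on the opposite strand.

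**Figure D3:**
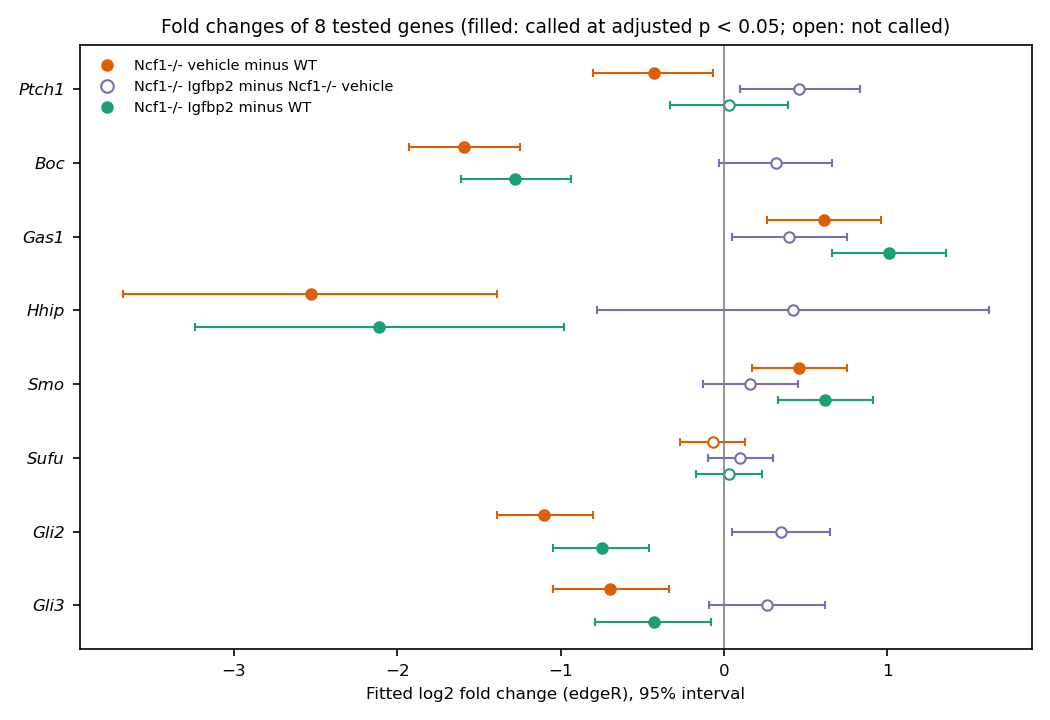
Fitted log2 fold changes (x axis) with 95% intervals for the 8 tested genes (y axis) in 3 comparisons, with filled points for an adjusted p-value under 0.05. Boc, Hhip, Gli2 and Gli3 lie below 0 in both comparisons with WT, Smo and Gas1 above 0, and the 8 open points between treatments lie between 0.10 and 0.46. The comparisons share libraries.

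Relative to WT, 6 of the 8 genes still differed in Igfbp2-treated Ncf1-/- NSCs (Gli2, Gli3, Hhip and Boc lower, Smo and Gas1 higher), against 62.4% of all genes tested, of which 30.8% were lower and 31.6% higher. The groups did not overlap for 5 of the 8 genes, against 54.3% of all genes. Without WT replicate 11, 6 of the 8 genes were called in vehicle-treated and 5 in Igfbp2-treated Ncf1-/- relative to WT NSCs. Without WT replicate 12, the WT library low in Y-linked genes, the counts were 7 and 6.

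For a comparison of levels between genes, CPM was divided by the effective length of each gene in kb. In WT, Smo (27.8 ± 6.63 CPM per kb, SD, n = 4) and Ptch1 (26.4 ± 7.43) were highest, followed by Gas1 (18.3 ± 5.28) and Sufu (16.3 ± 2.16), and the ranges of neighbours in this order overlapped. Below a gap came Gli3 (8.77 ± 1.73) and Boc (8.47 ± 1.77), then Gli2 (5.44 ± 0.542) and Hhip (3.39 ± 2.33), and Gli1 was last at 0.0440 ± 0.0596. The order changed in vehicle-treated Ncf1-/- NSCs, where Gas1 (28.0 ± 2.92) lay above Ptch1 (20.3 ± 1.70) without overlap. In that group the neighbours that overlapped were Boc (2.82 ± 0.176) and Gli2 (2.6 ± 0.295). With Igfbp2, Smo (42.7 ± 1.72) and Gas1 (36.9 ± 3.43) overlapped at the top and Ptch1 (26.5 ± 3.89) was the third.

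The ligand genes were low in WT. Dhh, which signals in the gonad and in peripheral nerve, had 0.273, 0.216, 0.918 and 0.668 CPM in WT replicates 9 to 12. The vehicle-treated Ncf1-/- libraries had 2.74, 3.73, 3.97 and 4.10 CPM and the Igfbp2-treated ones 9.69, 7.75, 12 and 7.41 CPM. The 3 groups did not overlap, in the order WT, vehicle and Igfbp2. The log2 fold change of Dhh was 2.71 ± 0.34 from WT with vehicle (adjusted p = 1.88e-05), 1.34 ± 0.27 between the treatments (adjusted p = 0.00508) and 4.05 ± 0.33 from WT with Igfbp2 (adjusted p = 6.88e-07). Between the treatments the call of Dhh was lost by limma on log2(TPM + 0.1) (0.80, adjusted p = 0.0583). The study's test on TPM called Dhh neither between the treatments (0.88, adjusted p = 0.218) nor with vehicle relative to WT (2.73, adjusted p = 0.177). Dhh shares 546 exon bases with Rhebl1 on its own strand and 1107 with Gm49442 on the other, and the counting is not stated to use strand.

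Shh, the ligand of the ventral forebrain, was near the limit of detection without Igfbp2. It had 0.182, 0.378, 0.746 and 0.0557 CPM in WT and 0.174, 0.193, 0.397 and 0.522 CPM in vehicle-treated Ncf1-/- replicates. In the Igfbp2-treated replicates it had 1.27, 0.962, 2.01 and 1.28 CPM, from 16 to 42 counts, all above the other 8 libraries in CPM. In counts they were not, as WT replicate 11, the deepest library, had 26. The log2 fold change between the treatments was 2.06 ± 0.51 (adjusted p = 0.0126), and from WT it was -0.19 ± 0.57 with vehicle (adjusted p = 0.793) and 1.87 ± 0.50 with Igfbp2 (adjusted p = 0.00535). By the study's test on TPM, Igfbp2-treated NSCs differed neither from vehicle (1.53, adjusted p = 0.247) nor from WT (1.46, adjusted p = 0.203) at the threshold. Shh overlaps 2 gene models on the opposite strand. Ihh had at most 8 counts in any library and was not tested.

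Cdon, a co-receptor related to Boc, completed the receptor genes. Cdon had 38.8, 43.9, 18.4 and 32.3 CPM in WT, 21.8, 29.0, 26.5 and 35.3 CPM in vehicle-treated and 18.6, 24.0, 33.3 and 17.9 CPM in Igfbp2-treated Ncf1-/- replicates. The 3 groups overlapped, and the adjusted p-values of Cdon were between 0.107 and 0.478. Without WT replicate 11 Cdon was lower in Igfbp2-treated Ncf1-/- than in WT NSCs (-0.71, adjusted p = 0.00898), as it was without Igfbp2-treated replicate 7 (-0.80, adjusted p = 0.0218).

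**Figure D4:**
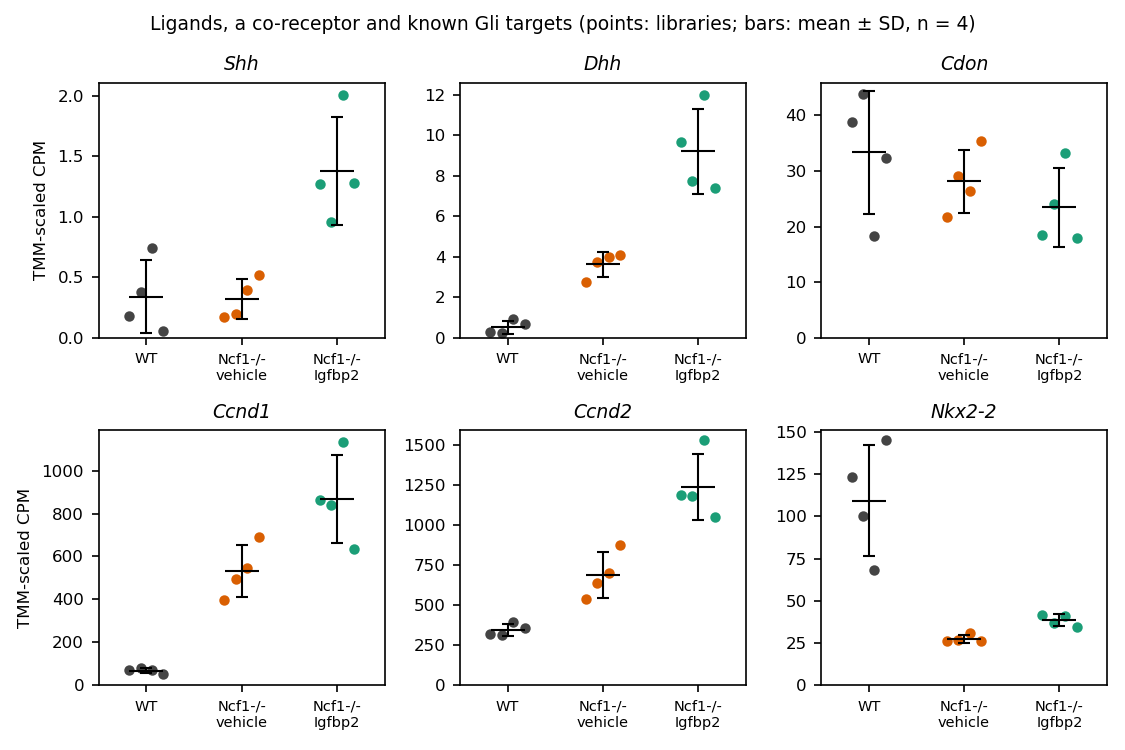
TMM-scaled CPM (y axis, each from 0) of the ligand genes Shh and Dhh, the co-receptor gene Cdon and the Gli targets Ccnd1, Ccnd2 and Nkx2-2 in 12 libraries (points), by group (x axis), with bars for the mean ± SD of 4 libraries. Dhh and Ccnd2 rise without overlap from WT over vehicle to Igfbp2, and Shh is higher in the 4 Igfbp2-treated libraries than in the other 8, and Cdon overlaps between all groups.

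Beyond the 9 genes, 55 other genes of the pathway were found and 49 tested. With vehicle relative to WT, 13 were higher and 17 lower (61.2% of those tested against 57.2% of all genes, with a median log2 fold change of -0.04), against 18 and 12 with library totals. Between the treatments 12 were higher and 2 lower (28.6% against 25%, median 0.13), but with library totals 3 were higher and 8 lower, and by limma on log2(TPM + 1) 2 were higher and 6 lower. With Igfbp2 relative to WT, 19 were higher and 15 lower (69.4% against 62.4%, median 0.02), and by limma on log2(TPM + 1) 7 and 22. The directions below are those with TMM factors.

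Of 9 tested genes for ligand handling and co-receptors, 3 were higher (Dhh, Disp1 and Lrp2) and 1 lower with vehicle than in WT. That was 44.4% called, against 57.2% of all genes (28.9% higher and 28.2% lower). The lower gene was Scube3, which codes for a secreted protein of the family that helps release lipid-bearing ligand, at 5.42 ± 1.70 CPM in WT and 3.10 ± 0.820 CPM with vehicle (log2 fold change -0.82 ± 0.26, adjusted p = 0.0155). Disp1, the transporter that exports ligand, had means of 15, 23.7 and 35.6 CPM in WT, vehicle-treated and Igfbp2-treated NSCs. Its log2 fold change was 0.65 ± 0.19 between vehicle and WT (adjusted p = 0.00875) and 0.58 ± 0.18 between the treatments (adjusted p = 0.0346). The first call was lost on log2(TPM + 1) by limma (0.60, adjusted p = 0.0576). The second call was lost with library totals (0.31, adjusted p = 0.227) and without any 1 of Ncf1-/- replicates 1 to 3 and Igfbp2-treated replicates 6 to 8 (adjusted p between 0.0742 and 0.0996). Disp1 was picked with its values known. Between the treatments 3 of the 9 genes were higher, namely Shh, Dhh and Disp1, and 0 were lower. That was 33.3% called, against 25% of all genes (14.2% higher and 10.7% lower). Some markers of other cell types were higher with Igfbp2 too, while of 6 tested neuron markers 2 (Tubb3 and Dcx) were lower and 4 were not called. Of 6 tested mesenchymal and meningeal markers 4 were higher, and the sum of all 9 was between 19.4 and 28.8 CPM with vehicle and between 41.6 and 53.8 with Igfbp2. The highest in that sum were Foxc1 (means of 11.1 CPM with vehicle and 23.2 with Igfbp2) and Acta2 (6.14 and 13.3). Acta2 was not called (adjusted p = 0.134), and Dcn, Lum and Twist1 had too few counts to be tested. Of 2 tested ependymal markers Foxj1 was higher and Rsph1 was not called (adjusted p = 0.159). The sum of all 4 was between 30.7 and 37.5 CPM with vehicle and between 55.8 and 79.6 with Igfbp2. Nearly all of that sum was Foxj1, with a mean of 69.8 CPM with Igfbp2 against 0.837 for Rsph1. Lum and the ependymal gene Tmem212 were at 0 or 1 count in every library. The part of such cells in the higher ligand genes was not tested.

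The list for the processing and inhibition of Gli proteins also held genes that act on these steps only indirectly, such as Prkar1a and Adrbk1 (Grk2). Of its 18 tested genes, 11 were lower and 0 higher with vehicle than in WT, with a median log2 fold change of -0.37. That was 61.1% called, against 57.2% of all genes, of which 28.2% were lower. The largest fall was that of Dyrk2, a kinase that marks Gli2 for degradation, from 14.2, 17.2, 15.7 and 19.2 CPM in WT to 6.40, 7.89, 7.73 and 7.72 CPM with vehicle. The groups did not overlap (log2 fold change -1.15 ± 0.11, adjusted p = 2.18e-06). Gpr161, a ciliary receptor that keeps protein kinase A active on Gli, fell from 39.8, 45.2, 52.2 and 42.1 CPM to 22.6, 21.4, 21.5 and 27.6 CPM (-0.95 ± 0.12, adjusted p = 2e-05). The others that were lower were Prkacb, Gsk3b, Csnk1d, Btrc, Fbxw11, Spop, Kif7, Ulk3 and Adrbk1 (Grk2). Between the treatments 5 of the 18 were higher (Dyrk2, Prkaca, Prkacb, Prkar1a and Adrbk1) and 0 lower. That was 27.8% called, near the 25% of all genes (14.2% higher and 10.7% lower). Dyrk2 had 9.80, 10.4, 10.7 and 11.1 CPM with Igfbp2, above all vehicle-treated and below all WT libraries (0.50 ± 0.11 between the treatments, adjusted p = 0.00798, but 0.22 with adjusted p = 0.158 with library totals and 0.02 with adjusted p = 0.944 by limma on log2(TPM + 1)). Prkaca, the catalytic subunit of protein kinase A, had means of 138.4, 142.8 and 175.4 CPM in WT, vehicle-treated and Igfbp2-treated NSCs, and it was higher with Igfbp2 than in WT (0.34 ± 0.09, adjusted p = 0.00634). On the TPM scales the sign of that difference turned (-0.09 and -0.07).

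Of 13 tested genes of the primary cilium, 6 were higher and 2 lower with vehicle than in WT (61.5% called against 57.2% of all genes). Ift88, a subunit of the intraflagellar transport complex, had 5.23, 5.83, 6.97 and 4.57 CPM in WT, 8.93, 7.89, 7.99 and 8.39 CPM with vehicle and 5.70, 5.65, 5.93 and 5.79 CPM with Igfbp2. The vehicle-treated libraries lay above all others (0.55 ± 0.13 from WT, adjusted p = 0.00238, and -0.52 ± 0.13 between the treatments, adjusted p = 0.0116). Kif3a, a motor of that transport, fell from 69.9 ± 2.46 to 52.5 ± 3.36 CPM (-0.41 ± 0.08, adjusted p = 0.000399), a call that was lost by limma on log2(TPM + 1) (-0.30, adjusted p = 0.146). Tulp3, which carries receptors such as Gpr161 into the cilium, had 32.4, 38.9, 48.1 and 44.1 CPM in WT, 57.6, 57.1, 61.2 and 62.4 CPM with vehicle and 82.0, 79.6, 86.4 and 81.8 CPM with Igfbp2. Its 3 groups did not overlap, and its log2 fold change was 0.54 ± 0.10 with vehicle (adjusted p = 0.000586), 0.47 ± 0.10 between the treatments (adjusted p = 0.00717) and 1.01 ± 0.10 with Igfbp2 relative to WT (adjusted p = 3.75e-06). Between the treatments Tulp3 was at 0.20 with library totals (adjusted p = 0.205) and at -0.09 on log2(TPM + 1). With Igfbp2 relative to WT the call was lost on that scale (0.44, adjusted p = 0.0595). Rpgrip1l, a protein of the ciliary transition zone, was lower with Igfbp2 than with vehicle (15 ± 1.48 and 10.2 ± 0.909 CPM, -0.56 ± 0.13, adjusted p = 0.00856).

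Genes known as targets of Gli factors did not move in 1 direction. Of 14 listed, 9 were tested, and 4 were higher and 3 lower with vehicle than in WT. That was 77.8% called, against 57.2% of all genes (28.9% higher and 28.2% lower), which were split about evenly too. Ccnd1, which codes for cyclin D1, had 70.2, 78.4, 68.2 and 51.3 CPM in WT, 398.5, 493.8, 546.1 and 692.2 CPM with vehicle and 865.8, 838.0, 1135 and 636.6 CPM with Igfbp2. Every Ncf1-/- library lay above every WT library, with a log2 fold change of 2.99 ± 0.21 with vehicle (adjusted p = 2.07e-07) and 3.70 ± 0.22 with Igfbp2 (adjusted p = 4.95e-08). Ccnd2, which codes for cyclin D2, had 316.9, 310.8, 391.5 and 357.6 CPM in WT, 537.4, 633.9, 698.7 and 874.6 CPM with vehicle and 1184, 1179, 1529 and 1048 CPM with Igfbp2. The groups did not overlap, and the log2 fold change of Ccnd2 was 1.0 ± 0.16 with vehicle (adjusted p = 0.000131) and 0.85 ± 0.16 between the treatments (adjusted p = 0.00309), where limma on log2(TPM + 1) gave 0.37 (adjusted p = 0.183). Nkx2-2, a factor of ventral progenitors and of the oligodendrocyte lineage, went the other way, from 123.6, 100.3, 68.0 and 145.1 CPM in WT to 26.1, 26.6, 30.9 and 26.3 CPM with vehicle and 41.5, 36.7, 41.0 and 34.7 CPM with Igfbp2. It was lowest in WT replicate 11 but above all Ncf1-/- libraries there too (-1.99 ± 0.18 with vehicle, adjusted p = 1.65e-06, and -1.50 ± 0.18 with Igfbp2, adjusted p = 1.31e-05). Cdk6 and Olig2 were also higher and Mycn and Sfrp1 lower with vehicle than in WT. These targets respond to other pathways too, and Nkx2-2 and Olig2 mark cells of the oligodendrocyte lineage.

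Since Gli1 was too low, genes of like pattern were sought for Gli2, by Pearson correlation of log2 CPM over the 12 libraries among 11171 genes that averaged 5 CPM or more. The 5 nearest were Wiz (r = 0.992), Kif1c (0.982), Pcnxl3 (0.978), Kif13a (0.978) and Kdm3b (0.977). Of the genes compared, 99 had an r over 0.95. The 12 libraries fall into 3 groups and share depth and cell composition, so that r describes the common order of levels only.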

How the data were processed

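RNA of 12 NSC cultures was depleted of rRNA and sequenced. Reads were aligned by the authors with Bowtie2 to GRCm38 (per the labels) and assigned to genes with RSEM. For each library the authors deposited the expected count of each gene (RSEM's estimated count, not normalized), the effective length, TPM and FPKM, and FPKM was not used. The merged table deposited by the authors holds a score, which was TPM times the number of transcripts per gene for 100% of 257083 values above 0, and it served for symbols only. Libraries of apocynin-treated WT cultures named in the study's sample sheet were not analysed here.

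Expected counts were rounded (33.8% of those above 0 were not whole). In edgeR 4.0.16 (R 4.3.3), filterByExpr kept 15706 genes with 99.9% of the counts, libraries were scaled by TMM, and all 12 libraries entered 1 quasi-likelihood fit with group means as the only terms. The median SE of a log2 fold change was 0.14. Tests were two-sided, and fold changes are fitted values ± SE. An exact permutation test of 4 libraries against 4 cannot give a p-value below 0.0286. Gene positions are from GENCODE on GRCm38. The tests were tried on simulated data.

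The study's own design was an analysis of TPM without a block. Its sample sheet pairs the Ncf1-/- cultures (1 with 5, 2 with 6, 3 with 7, 4 with 8), and the replicate block used these pairs. With group means removed, the correlation across genes was between -0.0673 and 0.0328 in the 4 pairs and between -0.248 and 0.257 in the 12 other combinations. The alternatives tried were DESeq2 1.42.0, totals in place of TMM, no gene filter, a filter at a mean of 5 CPM, a fit of 2 groups at a time, the replicate block, limma 3.58.1 on log2(TPM + 1) or log2(TPM + 0.1), the study's test on TPM, and each library left out.

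Named genes are the 9 members, Shh, Ihh, Dhh and Cdon, the called gene with the largest rise and the largest fall (mean of at least 1 CPM) per list of other pathway genes and comparison, and the 5 genes most like Gli2. Members and lists were chosen with earlier results of these data known. Grk2 is listed in the files as Adrbk1. One other gene of the pathway is not reported here.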

Additional observations from a re-analysis of the deposited data

Results flagged for a closer look

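In 4 of 72 sets of 4 libraries (1 gene in 1 group), 1 library lay apart from the other 3 by more than Dixon's 95% critical value allows, and chance gives about 1 in 20. No member of the core 9 was among them. Dyrk2 was at 6.40 CPM in vehicle-treated Ncf1-/- replicate 1 against 7.72 to 7.89 in the other 3 libraries. Nkx2-2 was at 30.9 CPM in vehicle-treated Ncf1-/- replicate 3 against 26.1 to 26.6. Prkaca was at 159.5 CPM in Igfbp2-treated replicate 8 against 179.7 to 182.3. Ihh was at 0.0861 CPM in WT replicate 11 and at 0 in the other WT libraries.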

How the results depend on the processing

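The 24 log2 fold changes of the 8 tested genes were recomputed 485 times. They kept their direction and their side of the threshold in 391 cases, lost a call in 28, gained one in 11 and changed sign in 55. For the other named genes the numbers were 607, 40, 4 and 9 of 660.

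Most sign changes came from the scale, since TMM holds the median of all genes near 0 between the treatments (0.04) and the others do not (-0.23 with library totals, -0.30 with log2(TPM + 1), -0.42 with log2(TPM + 0.1) and -0.43 with the study's test). Between the treatments the log2 fold changes with log2(TPM + 1), log2(TPM + 0.1) and the study's test were -0.18, -0.28 and -0.27 for Gli2, -0.11, -0.13 and -0.13 for Gli3, -0.09, -0.10 and -0.08 for Ptch1, and -0.30, -0.31 and -0.31 for Smo. They were -0.15, -0.46 and -0.53 for Hhip, -0.36, -0.39 and -0.39 for Sufu, -0.12, -0.17 and -0.17 for Boc, -0.07, -0.08 and -0.08 for Gas1, and -0.09, -0.10 and -0.09 for Tulp3. With library totals Gli3 was at -0.01, Smo at -0.11 and Sufu at -0.17. In Igfbp2-treated Ncf1-/- relative to WT NSCs the same 3 scales gave -0.37, -0.39 and -0.44 for Ptch1, -0.32, -0.35 and -0.36 for Sufu and -0.09, -0.09 and -0.07 for Prkaca, library totals gave -0.07 for Ptch1 and -0.06 for Sufu, and a filter at 5 CPM gave -0.02 for both. With vehicle relative to WT, Sufu was at 0.10 with library totals and at 0.04, 0.04 and 0.02 on the 3 scales, and Shh was at 0.03 with log2(TPM + 0.1).

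With vehicle relative to WT, limma on log2(TPM + 1) and on log2(TPM + 0.1) called 4 of the 8 genes and 18 other pathway genes each. The study's test called 2 (Gli2 and Boc), 7 and 4329 of all genes. Between the treatments, DESeq2 called 1 of the 8 and the fit of those 2 groups only called 2.  Of the other pathway genes 9 were called with a filter at 5 CPM, 8 and 9 with limma on the 2 TPM scales and 1 with the study's test. Of all genes 5906 were called with library totals, 6354 and 6519 with limma and 2149 with the study's test. With Igfbp2 relative to WT, the study's test called 2 of the 8, 17 other pathway genes and 5592 of all genes.

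Leaving out 1 library at a time, the count between the treatments was 0 to 2 of the 8 genes, 8 to 16 other pathway genes and 2294 to 4872 of all genes, the all-gene count falling to 2320 when vehicle-treated replicate 1 was left out, to 2294 for replicate 2 and to 2550 for replicate 6. The other pathway genes numbered 8 or 9 when any of replicates 1, 2, 3, 6 and 7 was left out. The counts above 0 of the 8 came without Ncf1-/- replicate 4, Igfbp2-treated replicate 5 and WT replicates 9 and 11. Sufu ranged from -0.17 to 0.01 with vehicle and from -0.06 to 0.12 with Igfbp2, both relative to WT. Ptch1 with Igfbp2 relative to WT ranged from -0.11 to 0.24, and Shh with vehicle relative to WT from -0.57 to 0.67. Beyond the scale, the cause of these changes was not tested.

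The replicate block between the treatments called 2 of the 8 genes, Ptch1 (0.41, adjusted p = 0.00566) and Gas1 (0.35, adjusted p = 0.0225), and changed no other call of a named gene. Y-linked genes differed between the members of each pair. Gli1 and Ihh had too few counts to be tested.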
